A study of Mus musculus with 7 samples.

Results

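The windows described here are the 10 kb stretches of the mouse autosomes with the strongest signal for H3K9me3, the trimethylated form of a lysine in histone H3, outside several clusters already known for it. A window was a member when its mean signal was at least 3 times the median autosomal 10 kb window of the same library, in all 3 H3K9me3 libraries. The first 6 Mb of each chromosome, the clustered protocadherins of chromosome 18, zinc finger clusters on chromosomes 2 and 4 and olfactory receptor clusters on chromosomes 2 and 7 were left out. Of 246066 full windows, 233274 lay outside these ranges and 523 of them were members, or 0.224%. They were thus selected on the measured signal itself, so their levels are given as a description without a test. A level below is always a fold of the library's median window, and coordinates are in mm10.

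H3K9me3 is written by methyltransferases such as SETDB1 and the SUV39H enzymes, is bound by HP1 proteins, and marks heterochromatin, where transcription is kept low. In mammals it is known from repeats near centromeres, from transposable elements and from the exons that code for the fingers of KRAB zinc finger genes, often near the end of the gene. Genes of developmental regulators, such as the Hox clusters, are best known for another mark, H3K27me3, which Polycomb complexes place on them in tissues where they are silent. No H3K27me3 library and no input library entered the comparisons here.

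Chromatin came from the hippocampus of wild-type C57BL/6 mice at 3 months of age. The home cage group has 1 library. The enriched cage group has 2 libraries, from mice that spent 24 h in a large cage with toys and then 1 week in the home cage, and the study asked whether this experience leaves a lasting change in H3K9me3. RNA came from wild-type cortical neurons of ICR embryos at day 16, at day 11 of culture: 2 control libraries and 2 libraries treated for 10 min with 50 mM KCl, which depolarizes neurons, all harvested 24 h later. The labels do not say whether libraries of a group are separate animals or cultures, so the p-values measure the spread between these samples, which may be technical. The hippocampal label cannot be checked with RNA, since the RNA is from another tissue, age and strain. Whole hippocampus holds neurons, glia and vascular cells, and a level is an average over them.

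The autosomes held 5982902 recovered fragments in the home cage library, 12589445 in enriched 1 and 7819038 in enriched 2. Enriched 2 stood apart: another 1070 windows passed the level in exactly 2 libraries, and 1022 of these fell short in enriched 2. Of the members, 398 had their lowest level in enriched 2 and 394 their highest in enriched 1. Without enriched 2 the rule gives 1545 windows in place of 523.

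Promoter sequences are shown first for members of the 3 kinds of protein-coding genes described below. Of these, developmental factor and zinc finger genes differ in where along the gene the signal lies. They are from RefSeq (GRCm38.p6, the build mm10), with each CG in capitals. Each runs from 250 bases before to 50 bases after a start of the gene in the RefSeq promoter table. For Zfp936 this start lies well inside the gene model (43114166 to 43192109), not at its first base. Zfp936 and Zfp68 code for zinc finger proteins, Lhx1 and Otx2 for homeodomain transcription factors, Mroh2a for a HEAT repeat protein and Smok2b for a sperm motility kinase.
Zfp936, chr7:43177340-43177639, plus strand: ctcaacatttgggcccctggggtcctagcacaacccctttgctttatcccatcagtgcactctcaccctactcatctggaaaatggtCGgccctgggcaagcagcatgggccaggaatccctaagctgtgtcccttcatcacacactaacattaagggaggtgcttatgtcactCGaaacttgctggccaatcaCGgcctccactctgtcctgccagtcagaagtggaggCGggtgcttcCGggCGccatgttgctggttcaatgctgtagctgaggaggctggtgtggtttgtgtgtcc
Zfp68, chr5:138619694-138619993, minus strand: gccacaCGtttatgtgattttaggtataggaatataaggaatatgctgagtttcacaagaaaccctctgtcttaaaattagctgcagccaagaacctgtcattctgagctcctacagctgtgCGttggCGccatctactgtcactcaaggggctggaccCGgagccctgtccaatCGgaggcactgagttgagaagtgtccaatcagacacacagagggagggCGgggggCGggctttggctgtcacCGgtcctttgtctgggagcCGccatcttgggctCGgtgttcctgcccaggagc
Lhx1, chr11:84525485-84525784, minus strand: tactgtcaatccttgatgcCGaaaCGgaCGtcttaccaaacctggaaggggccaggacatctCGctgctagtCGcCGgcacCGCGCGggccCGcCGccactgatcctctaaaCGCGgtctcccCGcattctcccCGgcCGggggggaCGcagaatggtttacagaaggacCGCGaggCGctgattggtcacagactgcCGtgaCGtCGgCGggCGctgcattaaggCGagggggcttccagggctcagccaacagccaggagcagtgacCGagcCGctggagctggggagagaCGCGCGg
Otx2, chr14:48667595-48667894, minus strand: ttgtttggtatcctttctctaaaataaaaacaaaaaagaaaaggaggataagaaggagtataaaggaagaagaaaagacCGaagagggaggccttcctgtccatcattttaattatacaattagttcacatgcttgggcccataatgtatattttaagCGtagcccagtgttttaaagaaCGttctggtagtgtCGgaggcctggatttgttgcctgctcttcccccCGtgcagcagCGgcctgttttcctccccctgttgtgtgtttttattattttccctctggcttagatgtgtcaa
Mroh2a, chr1:88226770-88227069, plus strand: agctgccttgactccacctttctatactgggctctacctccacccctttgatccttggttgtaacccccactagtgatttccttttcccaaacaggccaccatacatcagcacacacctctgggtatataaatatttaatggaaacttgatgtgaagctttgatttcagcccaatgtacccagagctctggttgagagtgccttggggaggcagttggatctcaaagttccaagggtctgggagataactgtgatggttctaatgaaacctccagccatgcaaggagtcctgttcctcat
Smok2b, chr17:13230013-13230312, plus strand: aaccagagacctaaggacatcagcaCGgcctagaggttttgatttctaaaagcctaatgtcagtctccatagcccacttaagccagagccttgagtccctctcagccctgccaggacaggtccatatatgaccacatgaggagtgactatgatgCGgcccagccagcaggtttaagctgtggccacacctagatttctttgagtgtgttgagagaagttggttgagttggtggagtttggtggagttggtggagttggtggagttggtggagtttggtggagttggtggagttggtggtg
The Lhx1 promoter held 31 CG, with an observed over expected CG ratio of 0.961, and the Mroh2a promoter held 0. Otx2 (6), Zfp936 (6), Zfp68 (10) and Smok2b (2) lay between them. The 300 bases of the Lhx1 promoter had levels of 4.82 in the home cage, 6.41 in enriched 1 and 5.66 in enriched 2. Those of Mroh2a had 19.2, 32.1 and 17.3. The promoter of Zfp68 had 0, 1.43 and 1.91, although its window stood at 3.95, 3.68 and 3.52. The stretch of Zfp936, inside its gene model, had 10.6, 13.1 and 9.13. Over 300 bases, levels as low as those of Zfp68 rest on few fragments. In these examples the signal of a member window included the promoter or, in Zfp68, was low there.

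MicroRNA genes lie inside the member windows of all 4 Hox clusters, and the mature forms of their 5p arms, shown here, fall into 2 groups by seed (bases 2 to 8, in capitals).
miR-10a-5p, chr11:96317186-96317208, plus strand: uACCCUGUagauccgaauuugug
miR-10b-5p, chr2:74726074-74726096, plus strand: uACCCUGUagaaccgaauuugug
miR-196a-5p, chr15:102973365-102973386, plus strand: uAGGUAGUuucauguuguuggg
miR-196b-5p, chr6:52230129-52230150, minus strand: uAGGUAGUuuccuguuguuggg
Mir10a lies in the Hoxb cluster and Mir10b in the Hoxd cluster, and both share the seed ACCCUGU. Mir196a-2 (Hoxc) and Mir196b (Hoxa) share the seed AGGUAGU. Their windows had levels between 3.19 and 4.46 in the home cage, 4.19 and 5.49 in enriched 1 and 3.51 and 4.27 in enriched 2. Only these 4 of 1163 genes on a list of small RNAs (0.344%) touched a member, beside 1.11% of all gene models. Gm51264 on chromosome 12, the model of miR-9718, did so too and is not on that list. Genes on the list had a median length of 0.083 kb, against 6.44 kb over all gene models, and short genes touch fewer windows.

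Sorted by what they touch, the members were led by genes of developmental transcription factors. A window with more than 25% of its signal in 500 bases was set apart as a narrow column, and the others were sorted by gene. Developmental transcription factor genes took 155 members, or 29.6%, but 0.565% of all windows with signal. Zinc finger genes took 86, or 16.4%, against 0.654% of all windows. Their list was made by gene symbol, such as Zfp or Zscan. Zinc finger genes under other names were therefore counted in the other classes. Other protein-coding genes took 96 (18.4% against 44.0%), other gene models 65 (12.4% against 11.9%) and windows without a gene model 90 (17.2% against 38.3%). Narrow columns were 31 (5.93% against 4.52%). The list of developmental factors was drawn up after the genes of the members had been seen, so its share describes these windows and tests nothing.

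**Figure D1:**
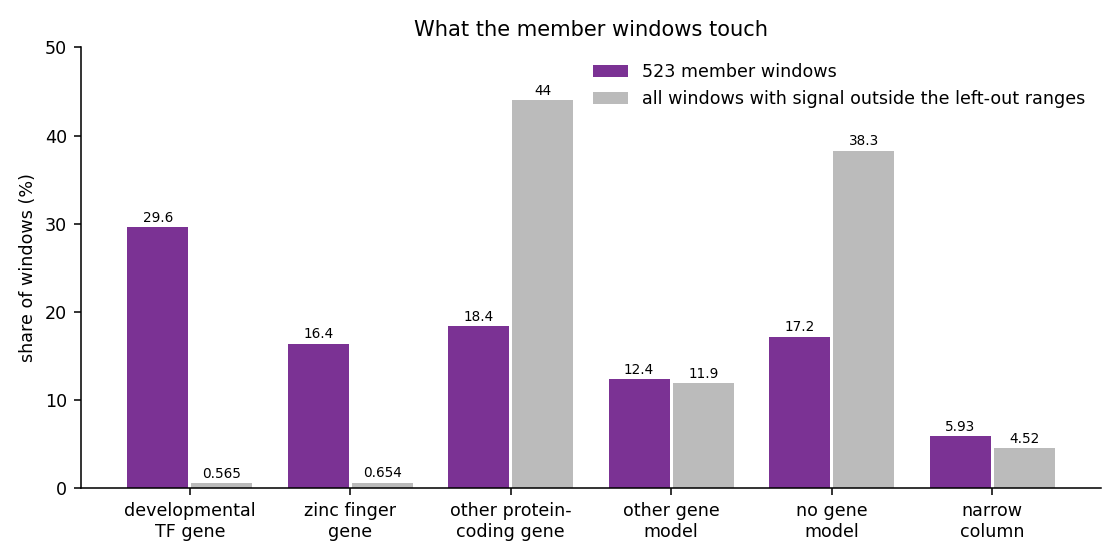
Share of windows (%) in each of 6 classes, for the 523 member windows (purple bars) and for all windows with signal outside the left-out ranges (grey bars). Developmental transcription factor (TF) and zinc finger genes make up 29.6% and 16.4% of members and under 1% each of all windows.

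Members lay on all 19 autosomes. Chromosome 17 held 59, which is 0.664% of its windows, ahead of chromosome 5 with 56 and chromosome 7 with 55. Chromosome 14 had 9 members, the lowest share at 0.0758%. In all, 421 members (80.5%) touched a gene model, against 59.4% of all windows. Only 4 members lay within 100 kb of a left-out cluster. Within the left-out ranges, 29 windows of the protocadherins and 30 of the zinc finger cluster of chromosome 4 passed the same level, and 0 windows of the other 3 clusters did. Those 29 protocadherin windows had medians of 5.06, 5.68 and 4.11 in the home cage, enriched 1 and enriched 2, above the medians of the members.

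Most members lay close to the threshold. The home cage level ran from 3.00 through a median of 4.23 to 194, enriched 1 from 3.03 through 4.64 to 159, and enriched 2 from 3.00 through 3.66 to 183. Of the 523, 56 reached a level of 5 in every library and 17 reached 10. Developmental factor windows were the most even class: their home cage levels ran from 3.01 to 5.89 with a median of 3.81, and only 2 of 155 reached 5 in every library. Zinc finger windows ran from 3.07 to 9.002 with a median of 4.37, and 10 of 86 reached 5.

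**Figure D2:**
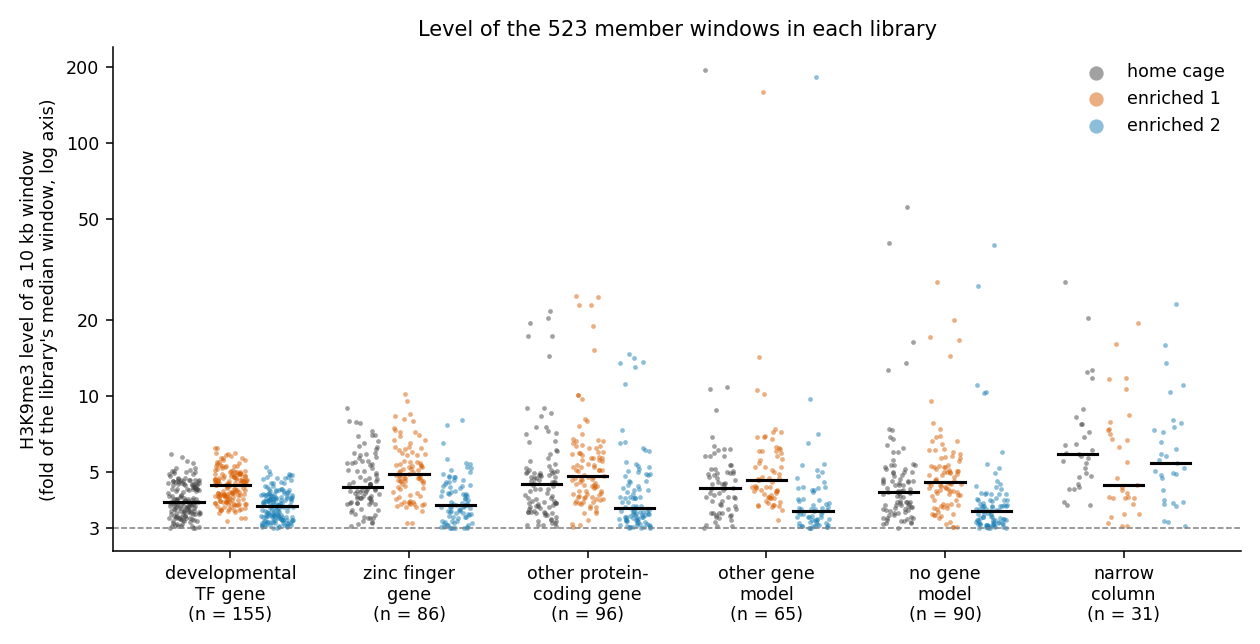
H3K9me3 level (fold of the library's median window, log axis) of each member window by class, with 1 point per window and library and the median as a black bar; the dashed line is the level of 3 used for selection. Developmental factor windows reach at most 6.24, and the highest points belong to windows of other kinds.

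The members nearest to the threshold show how little separates them from windows left outside. Just inside were a window of Zfp758 on chromosome 17 (3.0003 in its lowest library), of Tfap2b on chromosome 1 (3.0018), and of chromosome 2 from 37290001 (3.0029). Just outside were a window of Zfp935 on chromosome 13 (2.9993), of chromosome 7 from 47370001 (2.9993), and of chromosome 16 from 94070001 (2.9985). The lowest library was enriched 2 in all of them but the window of chromosome 2, where it was the home cage.

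Members within 20 kb of each other were joined, which gave 312 domains. A single window made up 210 of them, and 45 domains of at least 3 windows held 199 members. All 4 Hox clusters, which set the identity of body segments in the embryo, were among the 10 longest. The Hoxa domain (chromosome 6, 52160001 to 52270000) held 10 members, with mean levels of 4.15 in the home cage, 4.54 in enriched 1 and 3.98 in enriched 2. The Hoxd domain (chromosome 2, 74650001 to 74750000) held 9 members, from Evx2 to Haglr, at 3.62, 4.43 and 3.57. The Hoxc domain (chromosome 15, 102910001 to 103000000) held 8 at 3.48, 4.14 and 3.53, and the Hoxb domain (chromosome 11, 96270001 to 96350000) held 7 at 3.70, 4.09 and 3.49. These domains were long and low, and their highest window reached 5.81 in any library.

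A different kind of domain lay on chromosome 1 from 88210001 to 88310000. It held 10 adjacent members at mean levels of 15.2, 17.6 and 11.3 in the home cage, enriched 1 and enriched 2. It begins at the shared end of the Ugt1a genes, whose enzymes attach glucuronic acid to bilirubin and drugs. It runs over Mroh2a and Hjurp, which codes for a chaperone that loads the centromeric histone, and reaches into Trpm8, the cold and menthol channel. Its fragments came to 3499 in the home cage (95% Poisson interval 3384 to 3617, counting error only), 8401 in enriched 1 and 3518 in enriched 2. Its edges were steep. The window just before it stood at 1.49, 1.38 and 1.44, and the first inside at 20.3, 24.8 and 14.2. The window just after it stood at 2.10, 2.92 and 1.89, and the last inside at 17.2, 18.99 and 13.1. Copy number and mappability of this stretch were not analysed here.

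Domains without well-known genes were also long. A domain of chromosome 13 (12830001 to 12940000) with 9 members over Gm18262, Gm2544, Gm18878 and Gm40904 had means of 6.09, 6.86 and 4.46. One of chromosome 4 (121980001 to 122050000) over Gm12892 had 6 members at 6.09, 7.04 and 4.53. One of chromosome 8 (69280001 to 69390000) over D130040H23Rik, Gm7688 and Gm10033 had 7 members at 5.07, 5.34 and 3.98. Whether genes of these domains code for zinc finger proteins under other names was not checked. Zinc finger domains on chromosome 10 (82050001 to 82190000, with Zfp873 and BC024063, 8 members) and chromosome 17 (21920001 to 22010000, with Zfp942 and Zfp943, 6 members) had home cage means of 5.13 and 4.76.

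**Figure D3:**
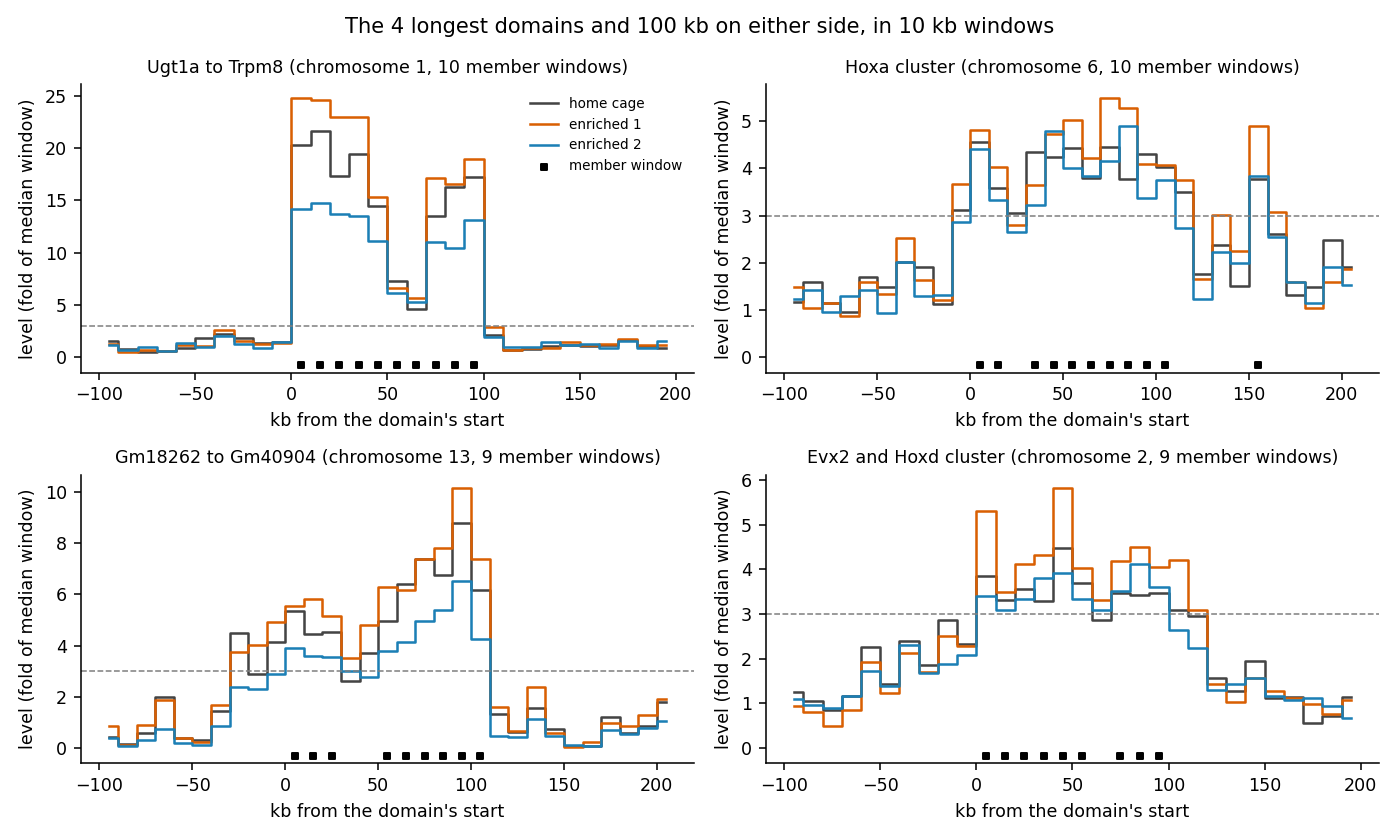
Level (fold of the library's median window) in 10 kb windows along the 4 domains with the most members, against distance in kb from the domain's start, with 1 line per library; black squares mark member windows and the dashed line a level of 3. The Ugt1a to Trpm8 domain rises at once from below 2 to over 14, while the Hoxa and Hoxd domains stay below 6.

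Many developmental transcription factors touched a member, on the list drawn up after the genes of the members had been seen. The share of this list is therefore a description and cannot be ranked against lists fixed before. Of 291 genes on it, 143 (49.1%) touched a member, beside 1.56% of all 19492 protein-coding genes and 0.516% of those on neither this nor the zinc finger list. Hox genes led with 34 of 39, including 11 of 11 Hoxa genes. Pax genes, which code for paired-domain factors of eye, spinal cord and kidney, followed with 7 of 9, ahead of 4 of 6 Dlx and 6 of 11 Tbx genes. Of 41 Fox genes 12 touched a member, and of 17 Sox genes only Sox14 and Sox21 did. The highest windows on the list belonged to Lhx1 (5.76, 6.23 and 5.25 in the home cage, enriched 1 and enriched 2), which patterns the head and kidney, and to Lbx1 (5.07, 5.97 and 5.08), a factor of migrating muscle precursors and dorsal spinal cord. Ranked by the lowest library, they were followed by Otx2 (5.89, 5.38 and 4.92), which specifies forebrain and midbrain, Foxd3 (5.03, 5.83 and 4.87), a neural crest factor, Isl2 (4.75, 5.59 and 4.93), a motor neuron factor, and Foxd2 (5.55, 5.03 and 4.73).

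In these genes the averaged signal was highest at the start. They were selected by a high window in these same tracks, so a peak in or near them was given by the rule. Only its place along the gene is described. Averaged over the 98 genes with a member and a start in the RefSeq promoter table, the highest 1 kb bin within 20 kb on either side of the start was the first of the gene, at 4.77, 5.53 and 4.56. At 18 to 20 kb before the start it was down to 1.98, 2.14 and 1.80. The 101 genes of the list without a member had the same shape at a lower level: their highest bin was also the first, at 2.24, 2.74 and 2.43. The rule had not selected these genes, but they are on the same list, drawn up after the members were seen. Other protein-coding genes, 15033 in number, stood at 0.97, 1.05 and 1.05 over the first 2 kb. Of 31 listed genes of at least 10 kb with a member, the last 5 kb stood above the first 5 kb in 7, 6 and 6 genes in the 3 libraries. Of 58 such genes without a member, it did so in 20, 18 and 21.

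The zinc finger genes showed the opposite order along the gene. Of 407 gene models on the list, which goes by gene symbol, 65 (16%) touched a member. In the 54 with a RefSeq start, the first 2 kb stood at 1.17, 1.34 and 1.13, near the median window, and the last 2 kb at 5.35, 6.08 and 4.44. The last 5 kb stood above the first 5 kb in 51, 51 and 49 of these 54 genes. Of 220 zinc finger genes of that length with no member, which the rule had not selected, 148, 153 and 147 had the higher end (67.3%, 69.5% and 66.8%), against 47.1%, 44.0% and 45.4% of 9765 other protein-coding genes. Genes of a cluster share sequence and neighbourhood, so they are not independent of each other. The highest windows of the list were those of Zfp180 (9.002, 10.2 and 8.02), Zfp110 (7.93, 9.54 and 7.66) and Zfp606 (7.81, 8.47 and 6.53), all on chromosome 7, then Zfp369 on chromosome 13 (5.84, 6.96 and 5.62), Zfp873 on chromosome 10 (6.93, 6.99 and 5.43) and Zfp2 on chromosome 11 (6.53, 6.74 and 5.4). Zinc finger genes are near copies of each other, and how reads that match several places were treated is not given in the sources used here.

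**Figure D4:**
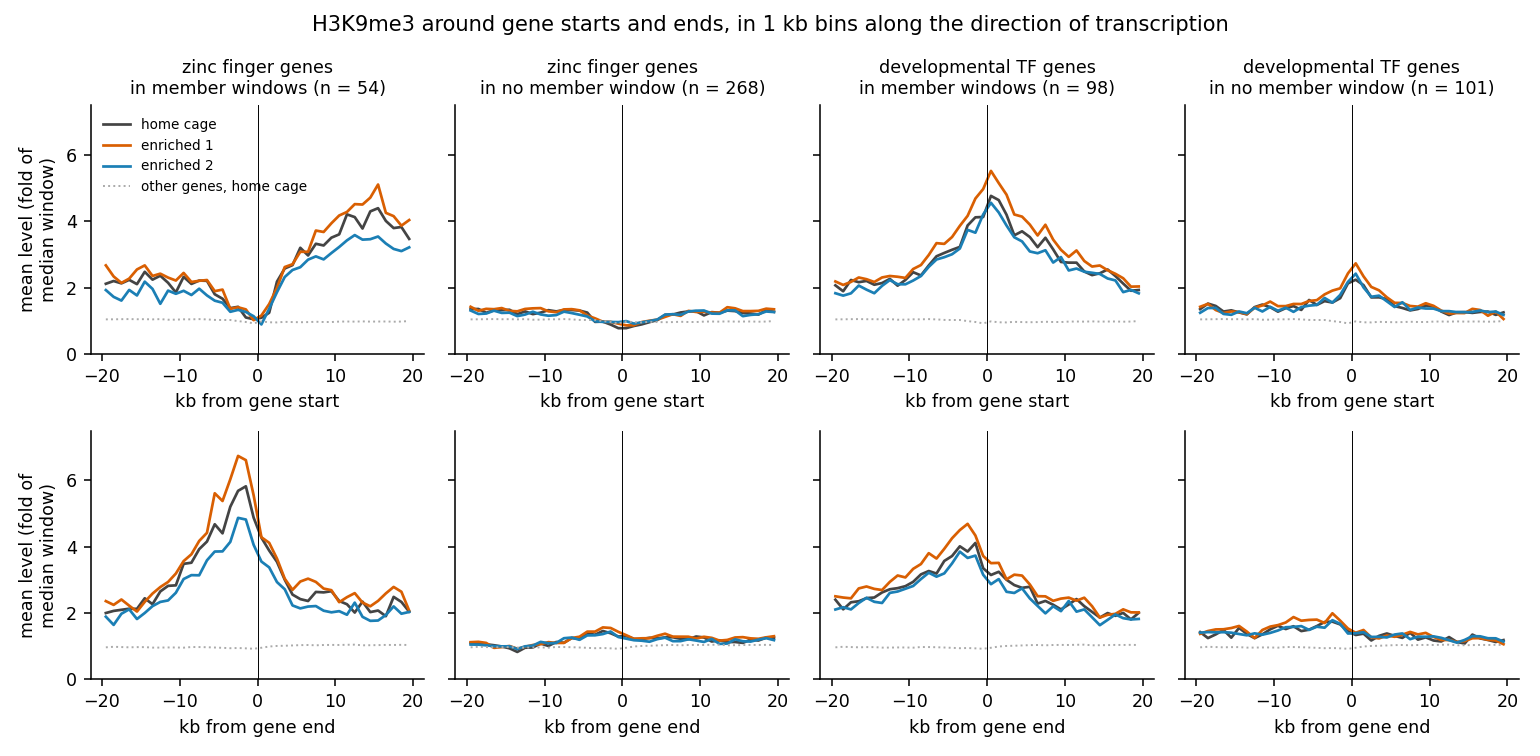
Mean level (fold of the library's median window) in 1 kb bins from 20 kb before to 20 kb after the gene start (upper row) and end (lower row), with 1 line per library and other protein-coding genes of the home cage dotted. Zinc finger genes rise toward the end, to 5.82 in the home cage, and developmental factor genes peak at the start, at 4.77.

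Promoters in member windows differed in CG ratio between the kinds of genes, and those outside differed less. Of 124 protein-coding promoters with the start in a member window, the median CG ratio was 0.684, against 0.61 over 15635 promoters in all. The 89 of developmental factors had a median of 0.71 and a GC content of 58.7%, and the 29 of other genes had 0.456. Only 6 zinc finger genes started in a member window by the promoter table, Zfp936 among them, with a median of 0.425. For starts in no member window the medians were 0.678 for developmental factors, 0.634 for 316 zinc finger genes and 0.607 for 15085 other genes. The median promoter level was 4.28, 4.74 and 4.25 for developmental factors in a member window and 2.01, 3.00 and 2.25 for the 110 that start in none, against 0.599, 0.762 and 0.804 over all promoters.

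Over all gene models 1.11% touched a member, so a count of 0 in a short list says little about that list. Gene length matters too: olfactory receptors had a median of 0.945 kb, against 6.44 kb over all gene models. All 9 Ugt1a genes touched a member, since they share their end with that domain, and they make up 9 of the 16 touched genes among 865 of other tandem families. Vomeronasal receptors touched members in 6 of 577 gene models, led by Vmn1r-ps87, a share of 1.04%. Counts were 0 of 990 olfactory receptors, 0 of 10 protocadherins outside the left-out range, 0 of 43 imprinted genes, 0 of 23 germ-line genes, 0 of 62 histone genes and 0 of 11 genes of H3K9 methylation. They were also 0 of 18 neuron genes, 0 of 9 astrocyte and oligodendrocyte genes, 0 of 7 microglia and vascular genes and 0 of 13 housekeeping genes. Single genes with high windows were Klf14, a Krüppel-like factor gene (7.58, 10.1 and 6.25), Smok2b (8.96, 9.72 and 6.07) and Smok2a (8.33, 10.1 and 5.38). Ttn, which codes for the giant sarcomere protein titin, touched 4 members, the highest at 6.57, 6.21 and 4.93. Klf14, the Smok2 genes and Ttn were chosen after their values were seen.

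The 10 highest windows were of 2 kinds. The window of chromosome 17 from 39840001 to 39850000, over the ribosomal RNA pseudogene Rn18s-rs5 and AY036118, stood at 194, 159 and 183. Windows without a gene model on chromosome 14 (from 19410001) and chromosome 2 (from 98660001) stood at 56.1, 28.2 and 39.6 and at 40.3, 19.9 and 27.2. A window of chromosome 15 (from 75080001) stood at 28.2, 19.5 and 23.2, and that of Gm40034 on chromosome 2 (from 181910001) at 20.4, 16.04 and 15.97. All 5 were highest in the home cage. The other 5 of the 10 highest windows belong to the Ugt1a to Trpm8 domain, where all were highest in enriched 1. In those first 5 windows, fragments beyond 2 at the same start made up 2.68% to 12.0% of the fragments, against at most 0.204% in the 5 of the Ugt1a to Trpm8 domain. No input library was used. Whether the levels of those first 5 windows come from sequence with more copies than the assembly holds was not tested.

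The 31 narrow columns also held repeated starts. A median of 50.7% of their signal lay in 500 bases, against medians of 10.6% to 11.3% in the other classes. Fragments beyond 2 per start made up a median of 5.05% and up to 20.3%, and the median was 0 in every other class. The window shared by Brox and Aida on chromosome 1 had 79.4% of its signal in 500 bases, at levels of 12.4, 11.7 and 11.1, and that of Cdk8 on chromosome 5 had 70.8%, at 6.49, 7.35 and 7.54. Whether such columns come from sequence with more copies than the assembly holds was not tested. Without them 492 members remain.

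Enriched and home cage libraries were compared over the 226076 windows that averaged 20 fragments or more by limma-voom, which adjusts p-values over all windows. The rule required a high level in every library, so a change in a member had to keep it above 3. None of the 523 members passed an adjusted p of 0.05, and the smallest was 0.955. Over all windows 4 passed, or 0.00177%. At an unadjusted p under 0.05 there were 0 members, where all windows gave 13024, or 5.76%. With 1 home cage library the test assumes that it varies as the enriched libraries do, and a missed threshold does not show that the levels were alike.

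The enriched libraries lay on opposite sides of the home cage over most members. The median log2 difference from the home cage was 0.10 in enriched 1 and -0.23 in enriched 2, and between the enriched libraries it was -0.33. It was -0.10 for both together, against -0.07 over all windows, and changed sign to 0.10 without enriched 2. Both enriched libraries lay on the same side of the home cage in 223 members, or 42.6%, against 68.9% of all windows. Of these, 156 lay below and 67 above.

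Among the classes, narrow columns lay lowest in enriched 1 but not in enriched 2. Of 31, 25 were below the home cage in both, against 38.1% of all windows, with medians of -0.26 in enriched 1 and -0.20 in enriched 2. Developmental factor windows had 36 of 155 above in both, against 30.8% of all windows, with medians of 0.13 and -0.13. Zinc finger windows had 25 of 86 below and 5 above in both, with medians of 0.13 and -0.28.

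**Figure D5:**
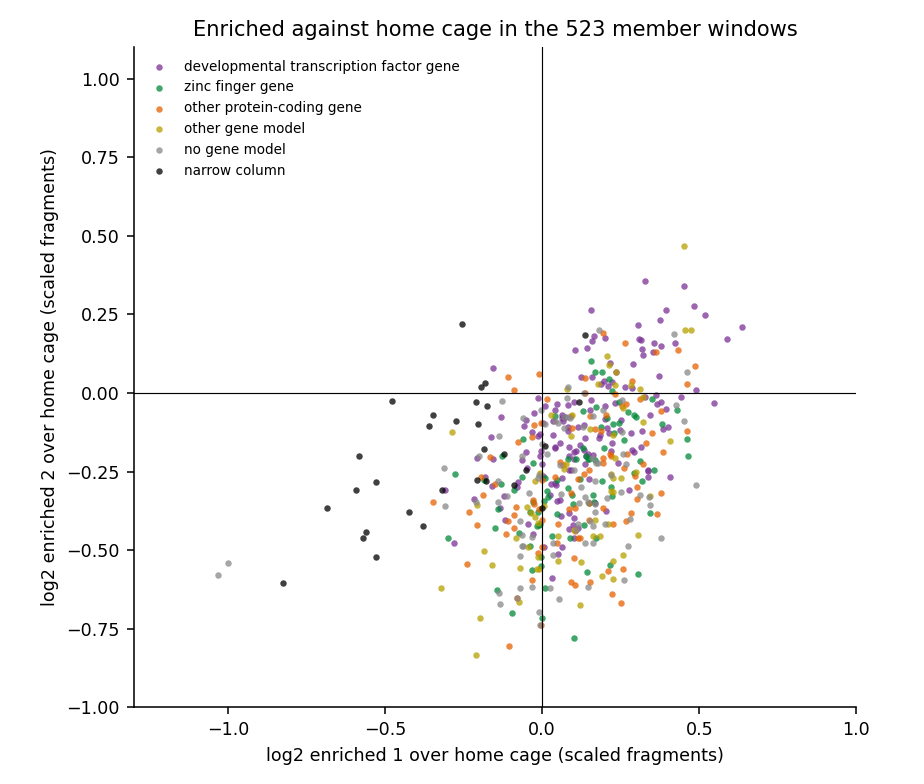
Log2 ratio of scaled fragments of enriched 1 over home cage (x) and enriched 2 over home cage (y), with 1 point per member window coloured by class. Most points lie to the right of 0 and below 0, and narrow columns (black) lie mostly in the lower left.

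The windows with the smallest unadjusted p and both enriched libraries on the same side were named by rule. Higher in both was the window of chromosome 6 from 30170001 (Mirc35hg and BB283400), with 112 scaled fragments in the home cage, 153 in enriched 1 and 155 in enriched 2, a log2 difference of 0.46 (SE 0.58) and an adjusted p of 0.964 by limma. It was followed by the windows of Msx1 (log2 difference 0.34), a factor of limb and face, Hoxa10 and Hoxa11 (0.38), and Hoxb3 and Hoxb4 (0.35). Lower in both was the window of 2700054A10Rik on chromosome 17, a narrow column, with 234 scaled fragments in the home cage, 132 in enriched 1 and 154 in enriched 2, a log2 difference of -0.69 (SE 0.74) and an adjusted p of 0.955. It was followed by a narrow column of chromosome 9 from 24540001 (-0.52), the windows of Gm3333 (-0.59) and Obox4-ps1 (-0.51), and a narrow column in Smo (-0.50), the Hedgehog signal transducer. Each of these differences is smaller than its SE. The Gm3333 window stood at -0.21 without enriched 2 and the Obox4-ps1 window at -0.32.

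Over the domains of at least 3 windows, the ratio of enriched 1 to home cage ran from 0.804 through a median of 1.08 to 1.29, and that of enriched 2 from 0.669 through 0.808 to 1.02. Exact binomial 95% intervals, which cover counting error only, lay above 1 in 13 of 45 domains for enriched 1 and below 1 in 31 for enriched 2. In 1 domain both lay on the same side, below 1. Such intervals were not computed for stretches outside the members, so these counts have no background share. Over single windows, the median log2 difference of enriched 1 from the home cage was 0.10 in members and -0.01 in all windows. For enriched 2 it was -0.23 in members and -0.06 in all windows. In the Ugt1a to Trpm8 domain the ratios were 1.13 (1.08 to 1.17) and 0.723 (0.69 to 0.758). In this domain the differences exceed the counting error, and they run in opposite directions in libraries of the same group. The intervals do not cover variation between libraries.

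The RNA of cultured cortical neurons gives another readout of the genes in the member windows, in another tissue, age and strain. The deposited counts cover splicing events, so a gene is listed only if it has one. Of 304 protein-coding genes in member windows 35 (11.5%) had an event in both tables, against 28.7% of 19492 in all. Zinc finger genes with a member had one in 18 of 64 (28.1%), against 108 of 321 (33.6%) with none. Developmental factors had one in 2 of 143 (1.4%) with a member and in 20 of 148 (13.5%) with none. A missing event can mean few introns or few reads, and these cannot be told apart here.

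The levels below are reads of a gene's best-covered event as CPM. They are scaled to the library's reads in the best-covered events of the genes tested, as normalized by edgeR, and not to its total reads in events. In such cultures fewer cells of a type and less RNA per cell cannot be told apart. The highest was in Plec, which codes for the cytoskeletal linker plectin, at 510 and 569 in the control libraries and 1405 and 899.7 in the KCl libraries. The groups did not overlap, and the share of all genes for which this holds was not counted. Control stood at 539.6 ± 41.8 (SD, n = 2) and KCl at 1152 ± 357. The log2 difference was 1.09, with an adjusted p of 0.376 by edgeR's quasi-likelihood test. Next by level came Dlx6os1, an antisense transcript of the Dlx5 and Dlx6 locus (103 and 133 CPM on average in control and KCl), the chromatin reader gene Trim24 (95.7 and 83.9), Jmjd4 (77.3 and 58.5), Brox (74.5 and 58.7), the Mediator kinase gene Cdk8 (70.2 and 44.9), the cytokine receptor gene Crlf2 (53.9 and 55.6) and Aida (39.1 and 51.0). In each of these 7 genes the control and KCl libraries overlapped. The sources used here do not say that the counting used strand, so reads of Dlx6os1 and of the genes opposite it cannot be told apart.

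Of 37 genes in member windows 0 passed an adjusted p of 0.05 by edgeR, as 0% of all 6117 genes did. By DESeq2 0 of the 37 passed, and 59 of all genes. Neither fit used the replicate numbers that control and KCl libraries share, although deviations of same-numbered libraries correlated at 0.62. With a replicate block edgeR called 5 of the 37, Plec and Pax6 among them, and 1264 of all 6117 genes, a larger share. Without the block, edgeR gave 4 of the 37 an unadjusted p under 0.05, where all genes gave 750, or 12.3%. These were Plec, Zfp867 (log2 difference 1.23), the interleukin receptor gene Il3ra (1.502) and 3110053B16Rik (-2.23). The difference of 3110053B16Rik rests on few reads, at 5.575 and 6.437 CPM in control and 0.6844 and 1.698 in KCl. The developmental factors with an event were Pax6, at 20.2 and 29.0 CPM in control and 52.0 and 52.1 in KCl, and Otx2, at 3.48 and 11.8 in control and 15.7 and 18.1 in KCl. Their log2 differences were 1.07 and 1.11, with adjusted p of 0.405 and 0.551 by edgeR without the block. Pax6 and Otx2 were chosen after their values were seen. The control libraries of Otx2 lay far apart: its log2 difference was 0.52 without control replicate 1 and 2.26 without control replicate 2. The groups did not overlap in Pax6 or Otx2, but the share of all genes without overlap was not counted.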

How the data were processed

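H3K9me3 ChIP-seq of hippocampus (1 home cage and 2 enriched cage libraries) and RNA-seq of cortical neurons (2 control and 2 KCl libraries) were analysed. The ChIP files the authors deposited hold coverage, a signal per base; its values are whole multiples of 1 step per library (tolerance 0.01), from which fragments of 285, 207 and 238 bases were recovered. For RNA the authors deposited counts of reads for both forms of splicing events, and 2 count columns that match no sample label were not used. The submitters' processing notes name CASAVA 1.7, BWA 0.7.12, MACS2, TopHat2 and mm10; which step each served, and how duplicates and multiply mapped reads were treated, is not given in the sources used here.

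Mean coverage per 10 kb window was divided by the library's median. Members and gene lists were chosen with earlier results of these data known. Members with at most 2 windows between them formed a domain. Gene models, promoters and miRNAs are from RefSeq (GRCm38.p6); GC content, repeats and exons of the windows were not analysed here. For the enriched against home cage comparison, fragments (at most 2 per start, by midpoint) were counted in every window averaging 20 or more. Scaling used the median ratio in windows of the lower 75%, and the test was limma 3.58.1 with voom weights. RNA was tested with edgeR 4.0.16 (quasi-likelihood, mean of at least 1 read) on the event of each gene with the most reads, without a replicate block, with DESeq2 1.42.0 as an alternative, in R 4.3.3. Benjamini-Hochberg adjustment used a threshold of 0.05. Both fits were also run on simulated counts. For RNA their spread was set below that of these data, so this says nothing about power here. The design had foreseen sequence features that need a genome, which were not used here.

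Named were the 10 domains with the most members, the 10 windows with the highest lowest level, 3 windows on either side of the threshold, 5 windows per direction with the smallest p, up to 6 genes of a list by level, and the 8 genes with the highest RNA level; 1 window so named is not reported here. Scripts ran in Python 3.11.15 with matplotlib 3.10.9, scipy 1.17.1, pandas 2.3.3 and numpy 2.4.6.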

Additional observations from a re-analysis of the deposited data

How the results depend on the processing

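Under the alternatives tried, the 523 members became 1107 at a level of 2.5 and 151 at a level of 4, where 33 developmental and 27 zinc finger genes touched one. Leaving out 1 library gave 539 to 1545 members, 143 to 164 developmental genes and 66 to 79 zinc finger genes. The other settings of the rule, including windows without narrow columns (added after the data were seen), and of the gap between domains stayed within 1.5 times. Members called between enriched and home cage were 0 under every scaling, limit and minimum tried. Over all windows 8 were called when scaled by the median ratio over all windows, 8 by total fragments, and 0 after thinning, with a mean of at least 5 or with a mean of at least 50 fragments; the cause was not tested. Leaving out an enriched library moved the median of the members between -0.23 and 0.10, without a test. The groups of RNA share replicate numbers, with no word in the labels on what they stand for; deviations of same-numbered libraries correlated at 0.62. With the replicate block, edgeR called 1264 of all 6117 genes and 5 of the 37 in members, a smaller share. The 5 were Plec (log2 difference 1.06, adjusted p 0.0115), Pax6 (1.08, 0.0293), Il3ra (1.503, 0.0482), 3110053B16Rik (-2.23, 0.0482) and Zfp867 (1.24, 0.0488). DESeq2 called 59 of all genes. Without 1 RNA library, 0 to 298 of all genes and 0 in members were called, with 298 without KCl replicate 2. Signs turned in leave-one-out fits of Dlx6os1 (-0.13 to 1.13), Trim24 (-1.17 to 0.38), Jmjd4 (-0.71 to 0.0011), Crlf2 (-0.63 to 0.83) and Aida (-0.26 to 1.14). The lone library left in a group is assumed to vary like the others. Fragment depth limits single windows, where the Msx1 member rests on 73 home cage fragments.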

Other observations

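The ratio of enriched 2 to enriched 1, which are libraries of the same group, varied among domains. In the 4 Hox domains it was 0.871 (Hoxa), 0.848 (Hoxc), 0.846 (Hoxb) and 0.8 (Hoxd). In the other 6 of the 10 longest domains it ran from 0.64 to 0.74, with 0.641 in the Ugt1a to Trpm8 domain. Other domains of at least 3 windows reached the Hox values or passed them, among them those on chromosome 11 from 50870001 (0.872), chromosome 5 from 138590001 (0.829) and chromosome 13 from 119590001 (1.14). By class, the median log2 difference of enriched 2 from enriched 1 was -0.24 in developmental factor windows, -0.37 in zinc finger windows, -0.41 in windows without a gene model and 0.11 in narrow columns. These groupings were chosen after the values were seen, and their cause was not tested.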
